A study of Mus musculus with 15 samples.

Results

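The heart pixels of mouse embryo sections were divided into ventricle-like and atrium-like pixels, and all other genes were compared between the 2 kinds within each section. A pixel is a small square of a section that has its own pair of barcodes and can hold several cells of different types or part of one. A pixel counted as heart when Myh6, Myh7, Myl7, Myl2, Myl3, Tnnt2 and Ttn together had at least 5 counts and at least 50 per 10000 of its counts. It was ventricle-like when Myl2 plus Myh7 exceeded 2 times Myl7 plus Myh6, atrium-like in the reverse case, and mixed otherwise. The 8 sections held 11373 tissue pixels, of which 1331 were heart pixels. Of these, 485 were ventricle-like, 454 were atrium-like and 392 were mixed. The members were selected on these 7 genes, so their levels are given as a description with no test.

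The study mapped transcripts in frozen sections of whole mouse embryos by flowing barcodes over the tissue in 2 crossed directions. The sections used here came from embryonic day 10 (3 at a pixel width of 50 µm and 1 at 10 µm), day 11 (2 at 25 µm and 1 at 10 µm) and day 12 (1 at 50 µm). No strain, genotype, sex or treatment is given in the labels, and the groups differ in stage and pixel width. The labels do not say which sections share an embryo, so the p-values measure the spread between sections, which may be technical.

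The ventricle and the atrium of the embryonic heart are muscle chambers that beat in turn and are built from partly different motor proteins. Myl2 and Myh7 encode a regulatory light chain and a slow myosin heavy chain typical of ventricular muscle, and Myl7 and Myh6 encode their atrial counterparts, although both are still made in the ventricle of the early embryo. Nr2f1 and Nr2f2 (COUP transcription factors) and Tbx5 are known for their part in atrial identity, and Irx4 and Hey2 for their part in ventricular identity.

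In 5 sections at least 5 pixels of each kind were present, and these entered the tests. They held 262 ventricle-like and 11 atrium-like pixels (E10, 10 µm), 74 and 72 (E11, 25 µm, replicate 1), 44 and 58 (E11, 25 µm, replicate 2), 36 and 217 (E11, 10 µm, replicate 2), and 36 and 52 (E12, 50 µm). The other 3 sections, all E10 at 50 µm, held 1 and 8, 32 and 3, and 0 and 33. Summed counts without the 7 selecting genes ran from 28870 (E10 atrium-like) to 1752100 (E10 ventricle-like), and at E11 from 40179 to 212509. Median total counts per pixel were higher in the ventricle-like pixels of 4 of the 5 sections, with a mean log2 ratio of 0.34 ± 0.43 (SD, n = 5; exact two-sided sign-flip permutation test, p = 0.1875, where the smallest possible p is 0.0625).

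On the grid, which the selection did not use, the 2 kinds formed separate blocks at E11. In the 25 µm sections the largest touching patch held 58 of 74 and 31 of 44 ventricle-like pixels, and 65 of 72 and 56 of 58 atrium-like pixels. In the 10 µm section it held 33 of 36 and 201 of 217. Of the neighbours of atrium-like pixels at E11, 67.7%, 70.9% and 85.1% were atrium-like and 1.13%, 0.493% and 0.620% were ventricle-like. The 2 sections at 25 µm were alike in layout: 25 grid positions were ventricle-like in both (33.8% of those in replicate 1 and 56.8% of those in replicate 2) and 37 were atrium-like in both (51.4% and 63.8%).

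**Figure D1:**
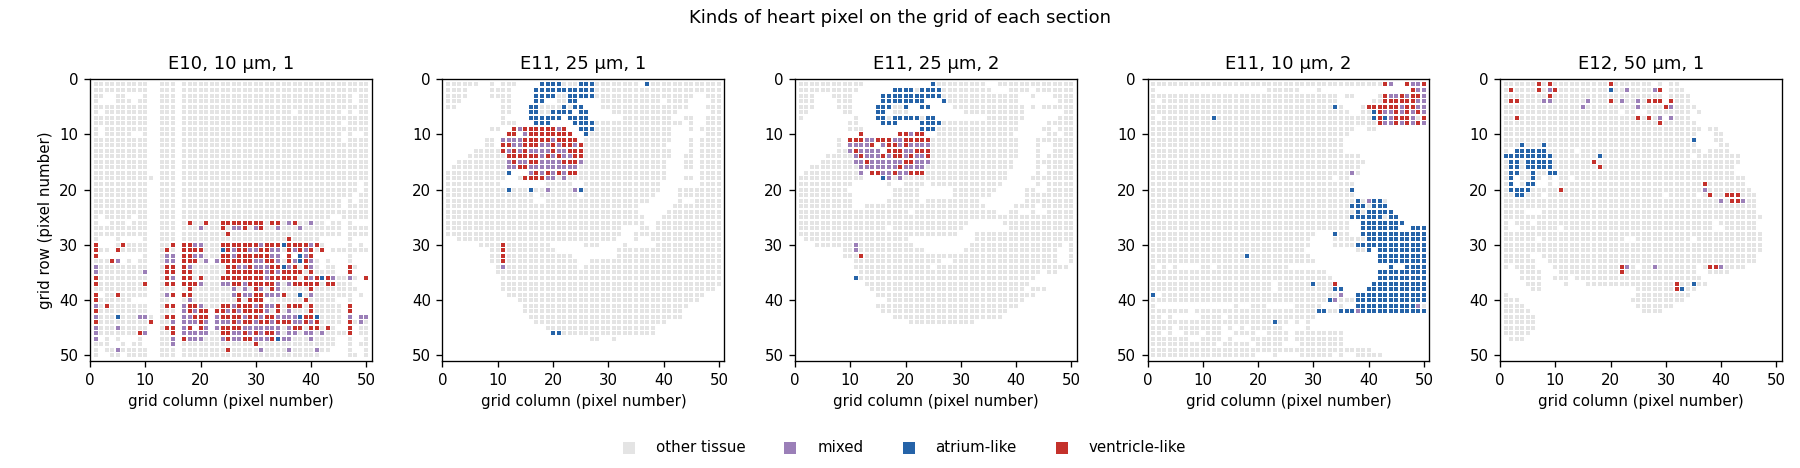
Each panel is 1 section, with the grid column and grid row as axes and 1 square per tissue pixel (red: ventricle-like, blue: atrium-like, purple: mixed, grey: other tissue). At E11 the red and blue blocks are apart and the mixed pixels lie among the red ones, while the 36 ventricle-like pixels of E12 are scattered.

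The E12 section went against its label. Its 36 ventricle-like pixels held 0 counts of Myl2, of Myl3 and of Myl7, which allows up to 0.189 per 10000 of each (3 counts, counting error only). They were ventricle-like through 71 counts of Myh7, and 15 of them through a single Myh7 count with no count of the other 3 chamber genes. Myh7 is also a gene of slow skeletal muscle, and the skeletal muscle list (Myod1, Myog, Myf5, Pax3, Pax7, Myh3 and Actn3) summed to 2271 CPM there (counts scaled to a total of 1e+06 per sum), against 260 in the atrium-like pixels of the section. All 7 members were detected, led by Myh3 (embryonic myosin heavy chain) with 311 counts. The largest patch held 5 of the 36 pixels. These pixels are therefore called Myh7-bearing pixels below, and results over sections are given with and without E12.

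At E10 the label held for one kind only. The 262 ventricle-like pixels of the 10 µm section had 19.7 Myl2 counts per 10000 and a largest patch of 159, but its 11 atrium-like pixels had a largest patch of 2 and 34.1% ventricle-like neighbours. No atrium-like block was present in that section. In the first E11 section at 25 µm, the ventricle-like pixels also held 895 CPM of the skeletal muscle list, against 21.9 in the atrium-like pixels. The value was 174 in replicate 2 and 24.9 in the 10 µm section. The part of the skeletal muscle list in the E11 results was not tested. A fit of the largest patch of each kind is given with them as counts of calls, with values for Nppa and Des. Pln has no value in that fit.

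Among the selecting genes, Myl2 had the largest ratio between the kinds in each E11 section. Myl2 stood at 92.5, 44.8 and 79.3 per 10000 in ventricle-like pixels and at 3.16, 0.692 and 1.58 in atrium-like pixels of the 25 µm replicates 1 and 2 and the 10 µm section. Myh7 stood at 121, 70.7 and 89.6 against 20.5, 10.7 and 31.1. Myl7 was at 116, 83.2 and 141 in atrium-like pixels and remained at 47.0, 28.1 and 20.8 in ventricle-like ones. Myl3, which encodes the ventricular essential light chain and was used only to call heart, was at 37.5, 23.9 and 19.4 against 13.0, 8.71 and 10.5. Tnnt2, cardiac troponin T, was close in both kinds (60.4, 44.9 and 55.6 against 62.7, 40.9 and 59.2). The lowest ratio of a ventricle-like pixel was 2.02 and the lowest of an atrium-like pixel 2.07, and 44 mixed pixels lay exactly at 2. Heart genes stood at 50.03 per 10000 in the lowest pixel inside that threshold and at 49.99 in the highest outside it.

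**Figure D2:**
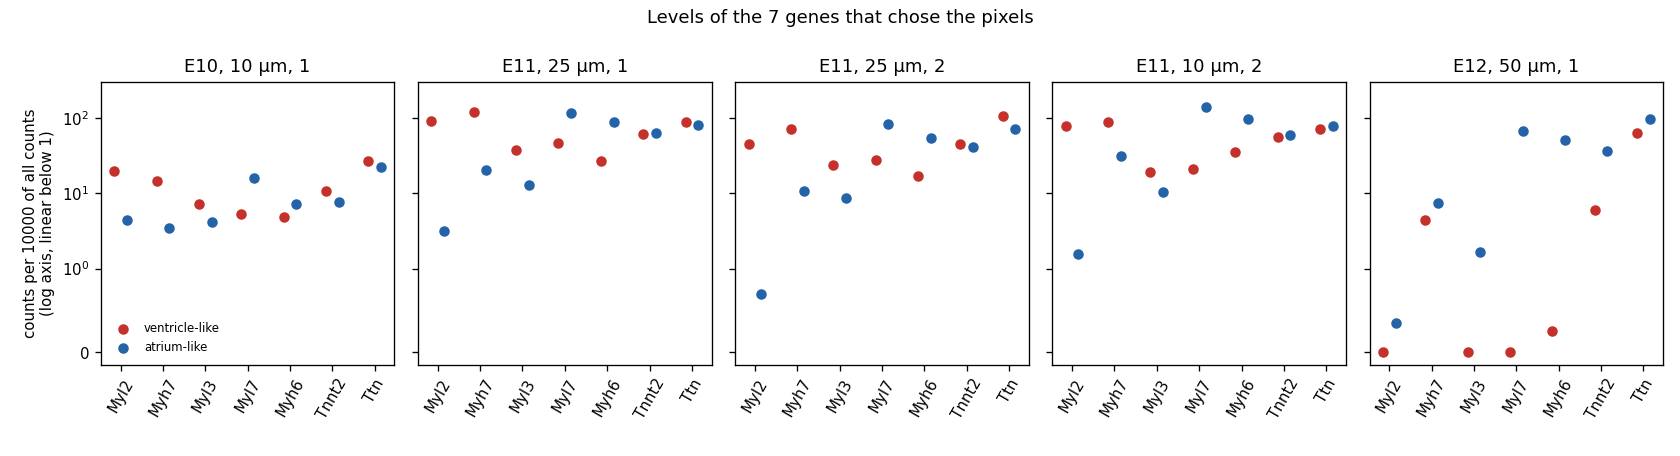
Counts per 10000 of all counts (log axis, linear below 1) of the 7 selecting genes, with 1 red point (ventricle-like) and 1 blue point (atrium-like) per gene and section. Myl2 is the gene furthest apart in the 3 E11 sections, and in E12 the red points of Myl2, Myl3 and Myl7 lie at 0.

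Over the 5 sections, 13 of 2980 other genes passed the test (0.436%; edgeR quasi-likelihood test with the section as block, adjusted p under 0.05). The 2 genes higher in ventricle-like pixels (0.0671% of those tested) were Mpped2, a metallophosphoesterase gene, and Cdkn1c, the cell cycle inhibitor p57. The 11 higher in atrium-like pixels (0.369%) included Nr2f1, Tbx5, Myl9, Fras1, Creg1, Car2, Gpx1 and Fth1, and 2 of the 9 tested members of the red cell list (Alas2 and Slc4a1). A pixel holds several cells, so more cells of a type and more RNA per cell cannot be told apart in any of these results. Mpped2 had a log2 fold change of 2.57 ± 0.48 (SE, adjusted p = 0.0154) and Tbx5 one of -2.69 ± 0.54 (adjusted p = 0.0265). Without E12, 12 of 2622 genes passed (0.458%), 4 of them higher (0.153%) and 8 lower (0.305%) in ventricle-like pixels, and 8 genes were called in both fits. Pln and Col4a1 were then also higher, Tnni3 and Casq1 also lower, and Tbx5 did not pass (-2.29, adjusted p = 0.114). Without the first E11 section at 25 µm no gene passed in either fit (178 and 142 at an unadjusted p under 0.05). Without the second, 1 and 0 passed.

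At E11, the 1 stage with both blocks in the same sections, the chamber effect came from 3 sections in a fit of 5. The spread came from these 3, since E10 and E12 have 1 section each and add none. Here 32 of 2980 genes passed (1.07%). The 9 higher in ventricle-like pixels (0.302%) were Mpped2, Pln, Lama4, Ahnak, Vcan, Cdkn1c, Des, Mest and Col4a1, and the 23 higher in atrium-like pixels (0.772%) included Nr2f1, Tbx5, Atp2a2, Casq1, Myl9, Tnni3, Ankrd1 and Nppa. In 30 of the 32 the direction was the same in all 3 sections (the exceptions were Nppa and Gm24270). In 25 the ranges of the 2 kinds did not overlap. The 32 were chosen by a test on these same sections, which favours both traits. The shares over all 2980 genes were not computed, so these counts, and the ranges given by gene below, are descriptions. The number of calls rested on both 25 µm sections: none passed without replicate 1 (146 at an unadjusted p under 0.05), 4 without replicate 2 and 53 without the 10 µm section, which leaves the 2 sections of like layout. With 1 section left out in turn, 28 of the 32 genes could be refitted each time and the other 4 in some of the refits (Pln, Slc4a1, Tbx5 and Slc25a37). All kept their direction in each refit they entered. A reversal was hardly possible for the 30 genes with 1 direction in all 3 sections. The refits without E10 or E12 keep all 3 E11 sections, so the kept directions add no support. Without E12, 27 passed, all among the 32. Vcan (adjusted p = 0.0620), Ahnak (0.0635), Hba-a1 (0.120) and Hba-a2 (0.135) then did not pass, and Slc25a37 was too low to be tested. DESeq2 called 13, all among the 32. With only the largest patch of each kind, 36 passed, 29 of them among the 32. Nppa did not pass there (-0.88, adjusted p = 0.120), and Pln and Slc4a1 have no value in that fit.

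**Figure D3:**
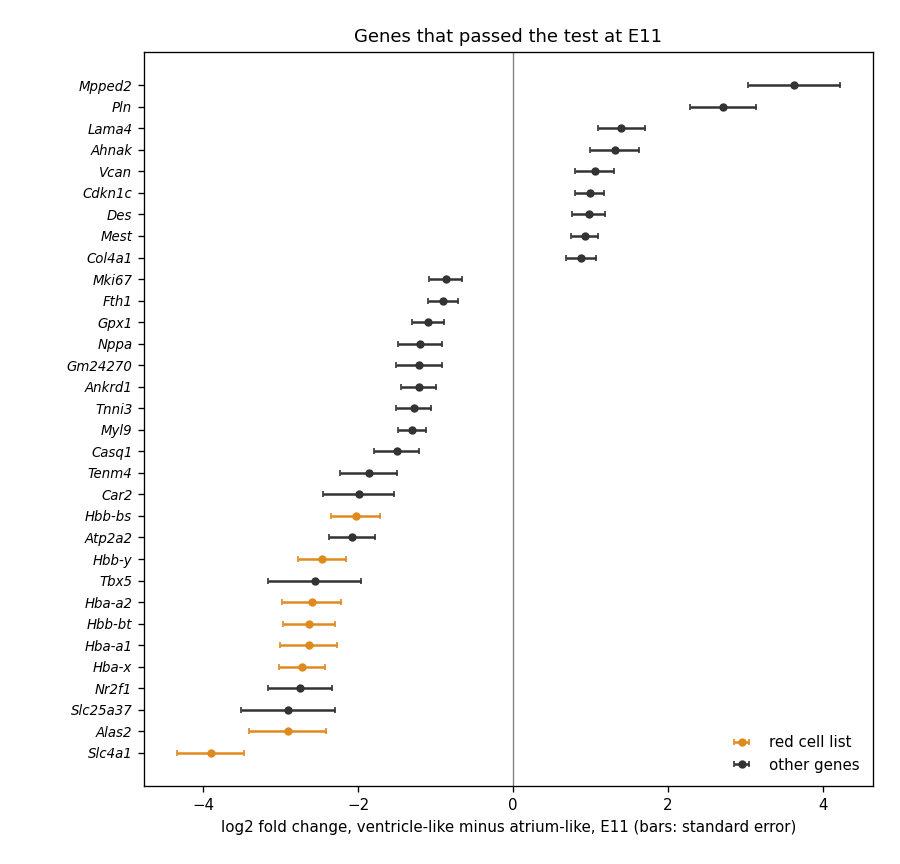
Log2 fold change (ventricle-like minus atrium-like, x axis) with its standard error for the 32 genes that passed at E11, by gene. Mpped2 and Pln are the furthest to the right, and 8 of the 23 genes to the left belong to the red cell list (orange).

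The calcium pump and its inhibitor lay on opposite sides. Pln encodes phospholamban, which restrains the pump that Atp2a2 encodes (SERCA2), the main route by which calcium returns to the sarcoplasmic reticulum. Pln was at 283, 437 and 124 CPM in ventricle-like pixels and at 21.9, 59.3 and 28.2 in atrium-like pixels of the 3 E11 sections, and the kinds did not overlap (log2 fold change 2.71 ± 0.42, adjusted p = 0.000789). Atp2a2 was at 243, 713 and 149 in ventricle-like and at 1247, 1429 and 1995 in atrium-like pixels (-2.08 ± 0.30, adjusted p = 0.000789), again with no overlap. It was 1 of the 4 genes that still passed without replicate 2 at 25 µm (-2.94). The Pln values rest on few reads, 2, 10 and 6 counts in the atrium-like sums, and the gene did not pass without either 25 µm section (adjusted p = 0.151 and 0.215). Of 21 genes for calcium handling and ion channels, 5 could be tested. Pln was called higher and Atp2a2 lower, and Ryr2, the calcium release channel, did not pass (-0.72, adjusted p = 0.142). Casq1, a calcium-binding protein of the reticulum, was lower in ventricle-like pixels, at 165, 244 and 74.7 CPM against 525, 463 and 325 (-1.50 ± 0.29, adjusted p = 0.00718). The related Casq2, a list member too low to be tested, went the other way. It had 8 counts in ventricle-like and 0 in atrium-like pixels over the 3 sections. The lower limit of this pooled ratio was 2.50, from counting error only.

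Of the 13 cardiac transcription factors tested (of 23), 2 passed, both higher in atrium-like pixels. Nr2f1 was at 230, 332 and 193 CPM there and at 47.1, 57.8 and 0 in ventricle-like pixels (-2.75 ± 0.41, adjusted p = 0.000707), and the kinds did not overlap. In tissue outside the heart it stood at 284, 360 and 126, so the ventricle-like pixels held less than the rest of each section. Tbx5 was at 109, 125 and 174 in atrium-like and at 23.6, 6.43 and 74.7 in ventricle-like pixels (-2.56 ± 0.60, adjusted p = 0.0371), from 3, 1 and 3 counts in the latter. Nr2f2 had the same direction in each section (70.7, 96.4 and 24.9 against 153, 196 and 212) and did not pass (-1.46, adjusted p = 0.0845). Nkx2-5, Mef2c and Gata6, which act in both chambers, had log2 fold changes of 0.05, 0.14 and -0.16 and did not pass.

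Of 15 genes of the atrial chamber list, 5 could be tested. All 5 were lower in ventricle-like pixels, 3 of them called (Nr2f1, Tbx5 and Nppa), with a median log2 fold change of -1.46 against 0.02 over all genes tested. Members such as Nr2f1 and Tbx5 could pass the filter on low counts mainly through their atrium-like sums. The shared direction and the median are therefore a description. Nppa encodes atrial natriuretic peptide, which the trabeculae of the embryonic ventricle also make. It was at 788, 557 and 104 CPM in atrium-like and at 275, 289 and 124 in ventricle-like pixels (-1.20 ± 0.28, adjusted p = 0.0385). The 10 µm section thus went the other way, on 5 ventricle-like counts, and the ranges overlapped. Myl4, the atrial essential light chain, was at 4824, 3617 and 7176 in atrium-like and at 4051, 2770 and 3335 in ventricle-like pixels and did not pass (-0.70, adjusted p = 0.106). The 9 members other than Stard10 that were too low to be tested in the stage fit are given by pooled counts. These pool the 3 sections, scaled to CPM, and leave out the pairing within sections. Hey1, a Hairy-related factor, was at 33.9 CPM in atrium-like and 3.09 in ventricle-like pixels (ratio 10.9, counting interval 1.70 to 458.8). Dkk3 was at 48.7 against 9.28 (ratio 5.24, interval 1.58 to 27.3). For the other 7 the interval of the ratio included no difference: Gja5, Mybphl, Sln, Bmp10 and Kcnj3 had the higher level in atrium-like pixels (27.5, 59.2, 21.2, 12.7 and 10.6 against 9.28, 40.2, 15.5, 12.4 and 3.09), and Kcnk3 and Angpt1 in ventricle-like pixels (92.8 and 83.6 against 61.4 and 52.9).

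Contractile genes differed by member. Of 22 tested sarcomere and cytoskeleton genes, Tnni3 and Myl9 were called lower and Des higher in ventricle-like pixels, and the median log2 fold change was -0.17. Tnni3, the cardiac troponin I of the mature heart, was at 1520, 1180 and 1238 CPM in atrium-like and at 848, 643 and 224 in ventricle-like pixels (-1.28 ± 0.23, adjusted p = 0.00278). Myl9, a regulatory light chain known from smooth muscle, was at 2789, 1654 and 1821 against 1335, 816 and 597 (-1.30 ± 0.18, adjusted p = 0.000218). Neither gene overlapped between kinds. Des, the intermediate filament of muscle, was at 1523, 591 and 697 in ventricle-like and at 623, 320 and 320 in atrium-like pixels. It was higher in each section (0.98 ± 0.21, adjusted p = 0.0191), though the ranges over sections overlapped. Its highest level lay in the E11 section whose ventricle-like pixels held most of the skeletal muscle list, and the part of that list was not tested. With only the largest patches Des was at 0.85 (edgeR, adjusted p = 0.0402). Outside E11 its log2 ratio was -0.75 at E10 and -0.22 at E12. Ankrd1, a stress-responsive ankyrin repeat protein of heart muscle, was higher in atrium-like pixels, at 580, 688 and 739 against 330, 302 and 299 (-1.22 ± 0.23, adjusted p = 0.00576). Actc1, Tnni1 and Mybpc3, used in both chambers, had log2 fold changes of -0.16, -0.10 and -0.04 and did not pass.

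**Figure D4:**
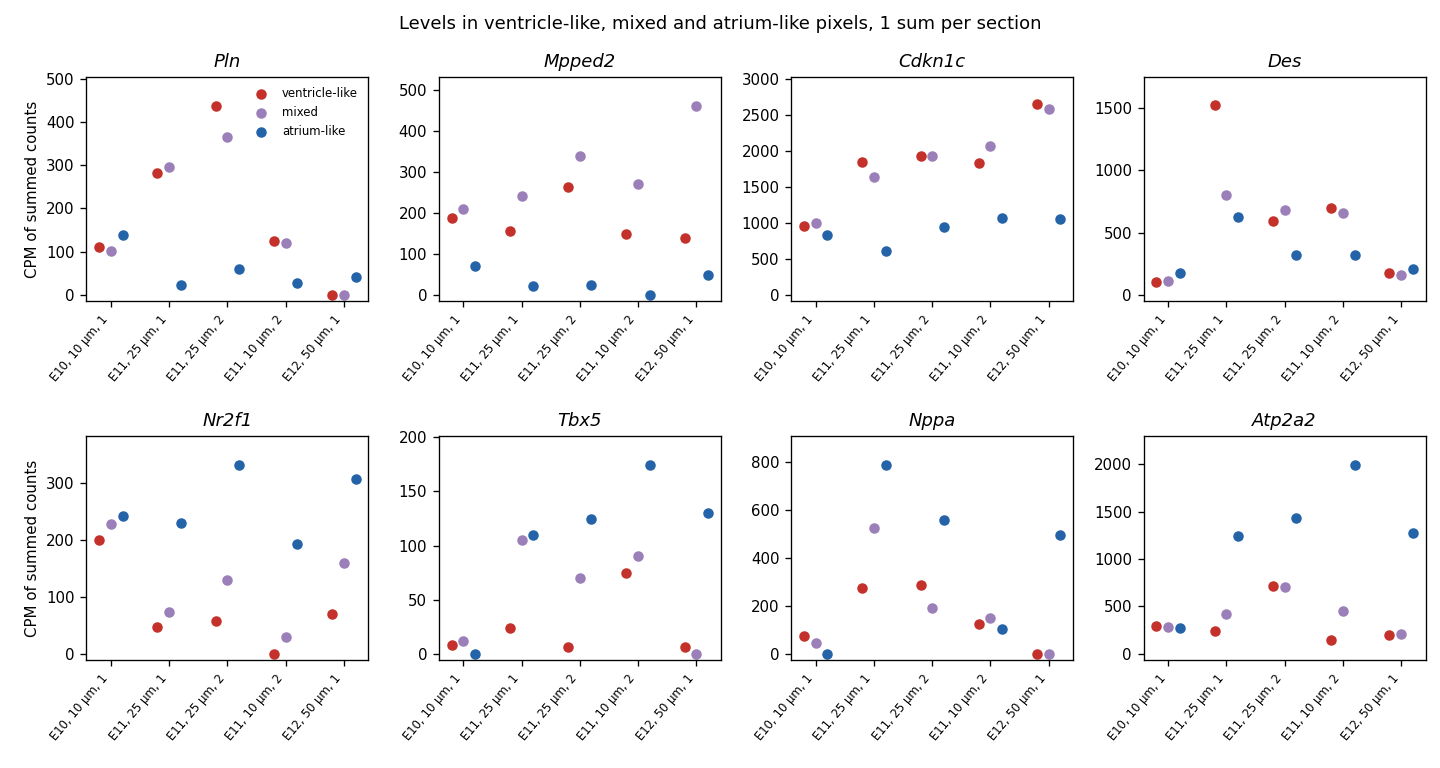
CPM of the summed counts in ventricle-like (red), mixed (purple) and atrium-like (blue) pixels, 1 point per kind and section, for 8 genes that passed at E11. At E11 the red and blue points are apart in every section except for Nppa in the 10 µm section, and in E10 they lie close together for Pln and Atp2a2.

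Because Tbx5, a T-box factor, was among the genes higher in atrium-like pixels, the promoter windows of the called genes were searched for the T-box core GGTGTGA on both strands, where the minus strand reads TCACACC. This motif was chosen after the calls were seen. Of 23 genes higher in atrium-like pixels, 17 had a window in the RefSeq table (build GRCm38.p6, 250 bases before to 50 after the start) and 3 held the motif (17.6%), namely Nppa, Tnni3 and Ankrd1. None of the 7 windows of genes higher in ventricle-like pixels held it, and of all 27025 genes with a window, 4.60% did. The 3 windows and that of Pln, the ventricle-side gene shown for contrast, are printed 5′ to 3′ on the gene's strand with matches in capitals. A match is a string of letters and not a measured binding site.
Nppa (chr4:148000472-148000771, plus strand): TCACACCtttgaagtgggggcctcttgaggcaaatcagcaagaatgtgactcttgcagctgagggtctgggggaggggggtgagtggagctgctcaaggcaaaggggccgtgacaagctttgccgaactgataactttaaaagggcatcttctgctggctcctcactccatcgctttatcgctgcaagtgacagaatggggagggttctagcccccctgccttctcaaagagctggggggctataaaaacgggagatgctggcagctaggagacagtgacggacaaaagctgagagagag
Tnni3 (chr7:4522479-4522778, minus strand): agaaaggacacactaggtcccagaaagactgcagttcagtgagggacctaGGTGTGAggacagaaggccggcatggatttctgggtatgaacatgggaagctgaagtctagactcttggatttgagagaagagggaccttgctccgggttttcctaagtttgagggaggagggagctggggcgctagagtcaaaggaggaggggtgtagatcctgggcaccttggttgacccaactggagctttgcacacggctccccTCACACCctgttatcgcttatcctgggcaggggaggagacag
Ankrd1 (chr19:36119795-36120094, minus strand): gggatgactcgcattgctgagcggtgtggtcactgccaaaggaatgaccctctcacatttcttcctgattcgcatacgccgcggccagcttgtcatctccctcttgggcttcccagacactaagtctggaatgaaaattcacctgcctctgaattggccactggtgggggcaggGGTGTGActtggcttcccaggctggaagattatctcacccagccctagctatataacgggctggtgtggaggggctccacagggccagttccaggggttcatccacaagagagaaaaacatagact
Pln (chr10:53337436-53337735, plus strand): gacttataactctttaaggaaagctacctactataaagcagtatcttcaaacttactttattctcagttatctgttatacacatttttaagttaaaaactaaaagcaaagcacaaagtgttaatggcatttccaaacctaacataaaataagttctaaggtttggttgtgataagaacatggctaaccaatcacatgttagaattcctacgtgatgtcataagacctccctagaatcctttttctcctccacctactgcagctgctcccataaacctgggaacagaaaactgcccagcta
Tnni3 held 2 matches, 1 of them after the start, and the single matches of Nppa and Ankrd1 began 250 and 76 bases before it.

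Lama4 (a laminin chain of muscle and vessel basement membranes) was at 338, 521 and 299 CPM in ventricle-like and at 98.4, 154 and 151 in atrium-like pixels (1.39 ± 0.30, adjusted p = 0.0191). Vcan (versican, the proteoglycan of cardiac jelly and cushions) was at 856, 1324 and 572 against 503, 308 and 433 (1.05 ± 0.25, adjusted p = 0.0409). Col4a1 (basement membrane collagen) was at 1641, 970 and 672 against 897, 451 and 320 (0.88 ± 0.19, adjusted p = 0.0205). In each section all 3 were higher in the ventricle-like pixels, and Vcan and Lama4 did not overlap across sections. Of the 8 cushion and mesenchyme genes tested, Vcan was the 1 called, 6 had a positive sign, and the median was 0.34. The 2 negative values were those of Col1a1 (-0.22) and Fn1 (-0.16), and Col3a1 was at 0.42. Tenm4, a cell surface teneurin, was higher in atrium-like pixels (273, 148 and 273 against 78.5, 57.8 and 49.8). Without replicate 2 at 25 µm, Vcan moved to 0.49.

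Mpped2 had the highest fold change of the 9 genes called higher in ventricle-like pixels at E11. It was at 157, 263 and 149 CPM in ventricle-like pixels and at 21.9, 23.7 and 0 in atrium-like pixels (3.63 ± 0.59, adjusted p = 0.00123), from 2, 4 and 0 counts in the latter. In tissue outside the heart it stood at 29.6, 53.4 and 28.7. Cdkn1c, which halts the cell cycle, was at 1845, 1928 and 1842 in ventricle-like and at 613, 937 and 1068 in atrium-like pixels (0.99 ± 0.19, adjusted p = 0.00578). Mki67, a gene of dividing cells, had the opposite sign, at 455, 623 and 324 against 842, 1067 and 405 (-0.87 ± 0.21, adjusted p = 0.0435). Of 11 tested cell cycle genes these 2 passed, and 8 had a positive sign. Mest, an imprinted gene active in growing embryonic tissue, was higher in ventricle-like pixels at 1586, 2249 and 1568 against 908, 1073 and 621, with no overlap. Ahnak, a large scaffold protein under the cell membrane, was higher as well, at 259, 437 and 373 against 153, 94.9 and 165.

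Several chamber genes were too low for the 5-section fit and entered a fit of the E11 sections alone. Some of them entered through the kind in which they were high, so their levels are given as a description. There 36 of 2699 genes passed (1.33%), 11 higher (0.408%) and 25 lower (0.926%) in ventricle-like pixels, and 28 of them were among the 32 named above. Shox2, a factor of the sinus venosus and pacemaker muscle at the inlet of the atrium, had 13, 25 and 74 counts in atrium-like and 2, 0 and 0 in ventricle-like pixels (142, 148 and 348 CPM against 15.7, 0 and 0). With the reads of the 3 sections pooled, its level was 38.3 times higher in atrium-like pixels, with a counting interval of 10.4 to 320.1 (exact 95%). This ratio leaves out the pairing within sections. Stard10, a lipid transfer gene of the atrial list, was at 208, 119 and 235 against 23.6, 12.9 and 24.9. Cited1, a transcription cofactor of the ventricular list, was at 275, 302 and 224 in ventricle-like and at 43.8, 59.3 and 61.2 in atrium-like pixels. Cacna2d2, a calcium channel subunit, was higher in atrium-like pixels (284, 101 and 320 against 55.0, 51.4 and 0).

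Of the 9 genes of the ventricular chamber list, Pln was the 1 tested in the stage fit. Irx4, the ventricular homeobox factor, had 3, 15 and 2 counts in ventricle-like pixels and 0, 0 and 1 in atrium-like pixels, which over the 3 sections is a ratio of 29.2 with a counting interval of 4.68 to 1212. Hand1 had 6 counts against 0 over the 3 sections, with a lower limit of 1.72 for the ratio. Hey2 and Prdm16 each had 4 counts against 0, with a lower limit of 0.965, which includes no difference. Irx5 went the other way in each section, with 6 counts against 9 and a ratio of 0.975 (0.286 to 3.07) over the 3. Irx3 had 8 against 4 and Mycn 14 against 9, and their ranges over sections overlapped. These are counts of reads with no test over sections. The summed CPM of the list was 714, 958 and 548 in ventricle-like and 142, 190 and 108 in atrium-like pixels.

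Red cell genes were higher in the atrium-like pixels. The red cell list (globins, Alas2 and Slc4a1) summed to 83053, 122908 and 37782 CPM in atrium-like pixels of the 3 E11 sections and to 11063, 13418 and 18268 in ventricle-like pixels. Of its 9 tested members all 9 were lower in ventricle-like pixels and 8 were called, with a median log2 fold change of -2.63. Low members such as Alas2 and Slc4a1 could pass the filter on low counts mainly through their atrium-like sums, so the shared direction is a description. Slc4a1, the anion exchanger of the red cell membrane, was at 602, 486 and 51.8 against 55.0, 19.3 and 24.9 (-3.90 ± 0.43, adjusted p = 1.74e-05). Hbb-y, an embryonic globin, was at 29740, 48717 and 14244 against 4310, 5983 and 6546 (-2.47 ± 0.31, adjusted p = 7.86e-05). The difference was smaller in the 10 µm section for each of these. Near-identical globin copies (Hba-a1 and Hba-a2, Hbb-bs and Hbb-bt) can share reads, so their separate values are uncertain.

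The fit with a chamber effect for each stage was rerun with only the pixels whose globin share was at or under the median of both kinds in the section. All 5 sections entered it. The E11 sections kept 51, 32 and 19 ventricle-like and 22, 19 and 108 atrium-like pixels, and the E11 effect is given here. Of the 32 genes 22 could be tested there and 7 passed, among 12 calls. Those 7 were Atp2a2 (-2.34, adjusted p = 0.000288), Nr2f1 (-2.95, adjusted p = 0.00865), Myl9 (-1.49), Tnni3 (-1.61), Casq1 (-1.65), Ankrd1 (-1.64) and Mest (1.14). Their folds were at least as large as before, which passing with fewer pixels favours, so this is a description. Myl4 passed there too (-0.75, adjusted p = 0.0390). Mki67 moved to -0.18 (adjusted p = 0.914), Fth1 to -0.52 and Gpx1 to -0.72, and none of these 3 passed. Cdkn1c was at 0.92 and Nppa at -1.15, and neither passed there (adjusted p = 0.170 and 0.289). On the ventricle-like side Vcan (1.46, adjusted p = 0.0585), Col4a1 (1.08, 0.104), Ahnak (1.22, 0.359), Lama4 (1.04, 0.440) and Des (0.68, 0.415) did not pass either. The part of the smaller number of pixels in these values was not tested. Pln, Mpped2 and Tbx5 were too low in those pixels to be tested. With globin genes left out of the totals, 20 genes passed, all among the 32.

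**Figure D5:**
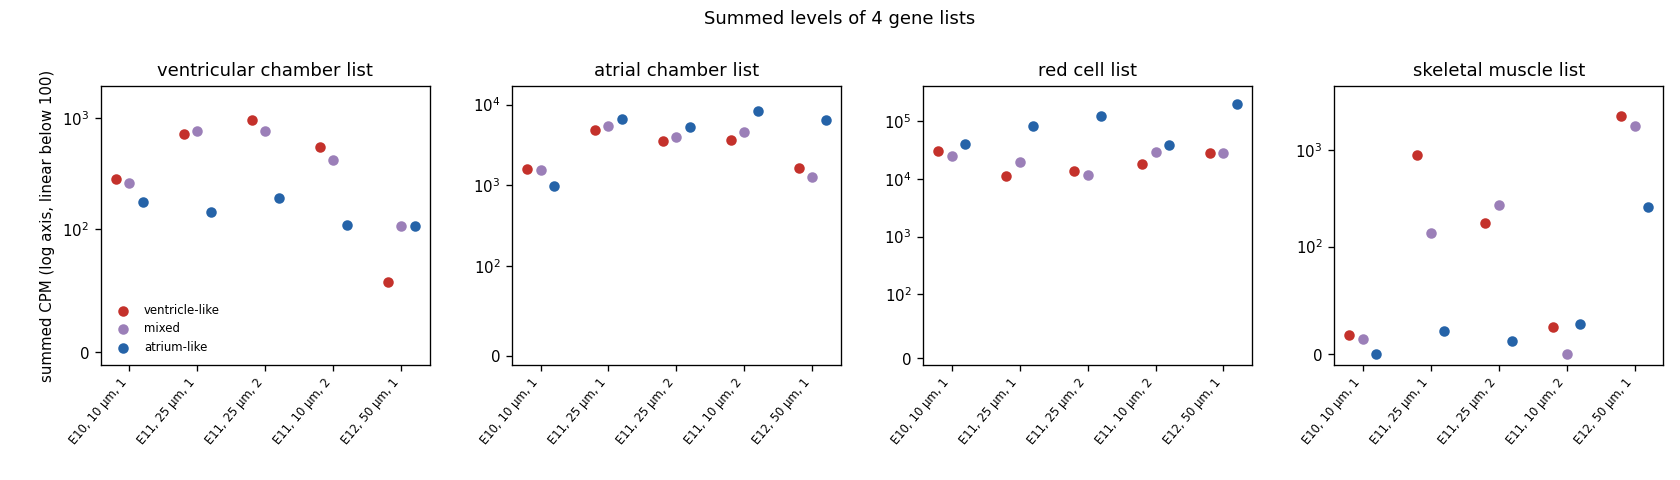
Summed CPM (log axis, linear below 100) of the ventricular chamber, atrial chamber, red cell and skeletal muscle lists in ventricle-like (red), mixed (purple) and atrium-like (blue) pixels of each section. At E11 the ventricular list is 548 to 958 CPM in red against 108 to 190 in blue, and the skeletal muscle list is highest in the E12 red point at 2271.

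The 148 mixed pixels of the 3 E11 sections lay among the ventricle-like ones and resembled them. Of their neighbours, 44.7%, 32.0% and 40.5% were ventricle-like and 0.913%, 0.830% and 10.8% atrium-like. Of the 32 genes called at E11, the mean CPM in mixed pixels was nearer to the ventricle-like mean on a log scale in 31, and Tbx5 was the exception (88.6 CPM, against 34.9 and 136). Pln averaged 260 in mixed pixels against 281 in ventricle-like and 36.5 in atrium-like pixels, and Atp2a2 526 against 369 and 1557. The ventricular list summed to 760, 765 and 421 CPM in mixed pixels. By these genes, mixed pixels lay on the ventricle-like side and not midway. The selecting genes already placed most of them there. At a chamber ratio of 1 the ventricle-like pixels of the 3 sections numbered 118, 97 and 60, against 74, 44 and 36 at a ratio of 2. The atrium-like ones numbered 80, 64 and 224, against 72, 58 and 217. The share of all tested genes nearer to the ventricle-like mean was not computed, so the 31 of 32 is a description and not independent evidence.

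At E10 no gene passed (0 of 2980, 0%; edgeR; 167 at an unadjusted p under 0.05, and 0 with DESeq2), from 1 section whose 11 atrium-like pixels held 28870 counts. Pln was at 110 CPM in ventricle-like and 139 in atrium-like pixels there, Atp2a2 at 300 and 277, and Nr2f1 at 201 and 242. The difference of the chamber effects, E11 minus E10, was called for no gene either (0%; edgeR; 188 at an unadjusted p under 0.05, and 0 with DESeq2). With 1 such section at E10, this comparison shows nothing of whether the chamber effect changed with stage. The 1 E10 section adds no spread, so the E10 test and the difference rest on the spread of the E11 sections. On simulated counts, the E10 effect recovered 2.50% of the 2-fold and 30.1% of the 4-fold changes that were tested. Without the 10 µm E11 section the difference was called for 13 genes, and 4 genes passed at E10. Of the 50 µm sections of E10, replicate 3 held a block of 33 atrium-like pixels, 30 of them touching, and replicate 2 held 32 ventricle-like pixels in 8 patches, the largest of 14. Their levels are side by side and not compared within a section. Nr2f1 was at 577 in the former and 226 in the latter, Tbx5 at 86.6 and 23.8, Tnni3 at 479 and 214, Pln at 40.4 and 174, Mpped2 at 144 and 234, and Nppa at 28.9 and 139.

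In E12, the 52 atrium-like pixels formed 1 patch of 47 with 68.0 Myl7 and 51.5 Myh6 counts per 10000. Their levels were near those of the E11 atrium-like pixels for several genes: Nr2f1 at 307 CPM, Tbx5 at 130, Nppa at 496, Atp2a2 at 1275 and Shox2 at 165. Pln was at 41.3 there. The Myh7-bearing pixels had 0 counts of Pln, Nppa, Casq1 and Ankrd1. Mpped2 and Cdkn1c were higher in them (140 against 47.2 and 2658 against 1057), so these 2 genes had the direction of the E11 ventricle in pixels without Myl2. Cdkn1c was also at 1291 in the E12 tissue outside the heart.

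In the remaining lists Nppa was the 1 called gene at E11, as a member of the trabecular and conduction list (2 tested, median -1.25) and of the natriuretic peptide system (2 tested, median -0.27). None of 11 tested energy metabolism genes and none of 16 glycolysis genes passed, with medians of -0.20 and 0.09. None of 4 tested endothelial genes passed, and their median was 0.26. In the epicardium, Notch and neuregulin, epithelium, and macrophage lists no gene was abundant enough to be tested, and the macrophage list summed to 31.4, 32.1 and 124 CPM in ventricle-like and 10.9, 5.93 and 42.4 in atrium-like pixels. The liver list was at 542, 315 and 249 against 197, 178 and 565.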

How the data were processed

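The authors deposited 1 table of raw counts per gene and pixel for each section, with no normalization. The 8 transcript tables named by the pixel rule were used, and the antibody tables and the other transcript tables were not used here. Per the labels' protocols, embryos were frozen and sectioned before barcoding, and a Nextera XT kit was used. The submitters' processing notes name CASAVA 1.8.2 and a human genome build, so no gene coordinates were taken from the counts. The aligner, the annotation, the use of strand and the collapsing of duplicate reads are not given in the sources used here, and reads of overlapping or antisense genes cannot be told apart. Of 14 Ensembl-named columns, 13 were matched to a symbol through GENCODE M21 and added to it. Totals per file ran from 2784390 to 12272836 counts.

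A pixel counted as tissue when its total reached 0.1 of the section's 95th percentile. Counts were summed per section over each kind of pixel, so the section and not the pixel is the replicate. The 7 selecting genes were left out of the tests and of the totals, and CPM are counts scaled to 1e+06 of those totals. Sums of sections with at least 5 pixels of each kind were fitted with edgeR 4.0.16 (robust quasi-likelihood, TMM, default filter on low counts, section as block, limma 3.58.1, R 4.3.3). A further fit had a chamber effect for each stage, and the E11 fit alone used 3 sections. P-values are two-sided and adjusted by Benjamini-Hochberg over all genes tested, with a threshold of 0.05. The SE is the absolute log2 fold change over the root of F. Both sums of a pair come from 1 section, which is where the pairing comes from.

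The members and lists were chosen with earlier results of these data known, and the lists are not independent evidence. One gene of the lists is not reported here and was left out of its list's sums. Named were up to 12 called genes in each direction, all called list members and all members of the 2 chamber lists. Genes named from the E11 fits were chosen after their values were seen. On simulated counts with known changes in both directions, 2971 genes were tested, 153 of them changed. Of these 153, the fit of 5 sections recovered 57.5% of 2-fold and 100% of 4-fold changes. The E11 effect recovered 32.5% and 90.4%, and the E10 effect 2.50% and 30.1%. The shares cover only changes in genes that were tested. How far they hold for the spread between the real sections was not tested. Intervals and floors cover counting error only. The ratios with a counting interval pool the reads of the 3 E11 sections and leave out the pairing within sections. To these pools the 10 µm section gave 40179 ventricle-like and 212509 atrium-like counts, so differences between sections enter the ratios. DESeq2 1.42.0 and limma-trend were alternatives, and Python scripts with SciPy made the pixel sums and figures.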

Additional observations from a re-analysis of the deposited data

Results flagged for a closer look

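In 51 sets of log2 ratios of ventricle-like over atrium-like pixels, each over 4 or 5 sections, 1 held a section far from the others, and chance marks about 1 set in 20. For Nr2f1, the E10 section had a ratio of -0.27, while the 3 other sections with at least 3 counts in each kind lay between -2.52 and -2.14. That section holds no atrium-like block, and its 11 atrium-like pixels had 7 counts of the gene. The part of this fact in the ratio was not tested.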

How the results depend on the processing

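The alternatives were run for the 5-section fit, the fit without E12 and the E11 effect. In these no named gene passed the threshold in the direction opposite to its main call, and 2 uncalled values changed sign. Lama4 moved to -0.04 at a chamber ratio of 4, where 3 sections entered with E12, and Nppa to 0.26 without E12 under limma-trend. Outside E11 single sections held opposite signs for several named genes. At E10 the log2 ratio was -0.34 for Pln, -0.75 for Des, -0.47 for Lama4 and 0.50 for Ankrd1, and at E12 it was 0.60 for Mki67. Counts of calls moved more. Over 5 sections (13 genes) no gene passed without the replicate block or with limma-trend (94 and 199 at an unadjusted p under 0.05). With fewer sections entering, the count was 32 with at least 20 pixels of each kind (4 sections, the same as without E10), 38 at a chamber ratio of 4 (3 sections), and 45 at 100 heart counts per 10000 and 26 in the deeper pixels (4 sections each). It was 22 with RLE size factors, 20 with DESeq2, 23 with no filter on low counts, 1 at a chamber ratio of 1, 3 with Myl2 against Myl7 only, 5 with Myh7 against Myh6 only, and 20 with globin genes left out. Leaving out 1 section gave 0 to 32. Without E12 (12 genes), no gene passed without the replicate block or with limma-trend (56 and 153 at an unadjusted p under 0.05). The count was 2 with plain totals, 4 with at least 10 counts in 8 sums, 4 at a chamber ratio of 1, 3 with Myl2 against Myl7 only, and, with 3 sections entering, 36 with at least 20 pixels of each kind, 55 at 100 per 10000 and 23 in the deeper pixels. It was 6 at a ratio of 4 (2 sections), and 0 to 36 with 1 section left out. For E11 (32 genes), DESeq2 called 13, a chamber ratio of 4 (3 sections in all) left 3, and 100 per 10000 (4 sections) gave 56. Of the alternatives added after seeing the data, the E11 sections alone gave 14 with no replicate block and 17 with limma-trend, globin genes left out gave 20 and pixels of low globin share 12. The largest patches gave 31 with 4 sections entering and 37 without E12 (3 sections). Leaving out 1 section gave 0 to 53 at E11, 0 to 4 at E10 and 0 to 13 for E11 minus E10. The median depth ratio kept its sign throughout. Fits of the 50 µm sections alone could not be run, with 1 and 0 sections. The cause of these shifts was not tested. Depth limits the low chamber genes: at E11, 3 counts amount to 9.28 CPM in the pooled ventricle-like and 6.35 CPM in the atrium-like sums.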
